A study of Hipposideros armiger and Mus musculus with 20 samples.

Results

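Interscapular brown fat (iBAT) of the great roundleaf bat, Hipposideros armiger, was compared with its subcutaneous white fat (sWAT), both from bats kept warm. The comparison rests on 4 of the 20 samples of the study, which were taken by their labels. They are 2 iBAT and 2 sWAT libraries from wild type bats held at 30 °C for 7 days, with 1 female and 1 male library in each group. The study also sequenced both depots after 7 days at 10 °C, abdominal white fat (aWAT) of the bat, and iBAT and sWAT of ICR mice at both temperatures, again with 1 female and 1 male library a group. The labels name no gene alteration in any group, and they do not say whether the iBAT and the sWAT library of one sex came from the same animal. p-values therefore measure the spread between the female and the male library of a group, pooled over groups. For the bat contrasts all 12 bat libraries enter, and for the species term all 20.

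Brown fat burns fuel to make heat. Its mitochondria carry UCP1, which lets protons flow back across the inner membrane without making ATP, so that the respiratory chain runs fast on fatty acids released by noradrenaline. White fat stores triglyceride in large droplets and secretes hormones such as leptin and adiponectin. Warmth lowers the need for heat, so a comparison at 30 °C shows how the depots differ without a cold challenge.

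Expression was deposited as FPKM, in which the fragments of a gene are divided by its length and by the library's size, for 14871 genes listed under mouse identifiers in both species. The assignment of bat reads to mouse genes is not given in the sources used here, and genes that every cell uses can be near 0 in the bat (Gapdh was at 4.39 to 8.41 FPKM in the 4 libraries). A gene at 0 is thus called listed at 0, with no fold. Read totals are unknown. From the steps between low values, the depth of the iBAT libraries was estimated at 0.662 and 0.624 of that of the female sWAT library, and that of the male sWAT library at 0.957. Genes listed at 0 numbered 1932 and 2030 in iBAT and 1577 and 1726 in sWAT. The part of this depth gap in differences of low genes was not tested.

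Across 11025 genes, limma on log2(FPKM + 1) called 2644 at an adjusted p under 0.05, which is 24%. Of these 1213 (11%) were higher in iBAT and 1431 (13%) were lower. A further reading by size gave 793 higher and 878 lower genes that differed at least 2-fold on this scale, 209 and 179 at least 4-fold, and 23 and 8 at least 16-fold. The 2 iBAT libraries correlated at 0.9714 across genes and the 2 sWAT libraries at 0.9619, against 0.8649 to 0.883 between depots (genes are not independent replicates). The median absolute log2 difference between the depot means was 0.41, and between the sexes 0.23 in iBAT and 0.26 in sWAT. Leaving out 1 library gave 813 to 863 higher genes and 751 to 960 lower ones. The lower count moved by over 1.5 times without the female iBAT (751), the male iBAT (838) or the female sWAT library (913).

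**Figure D1:**
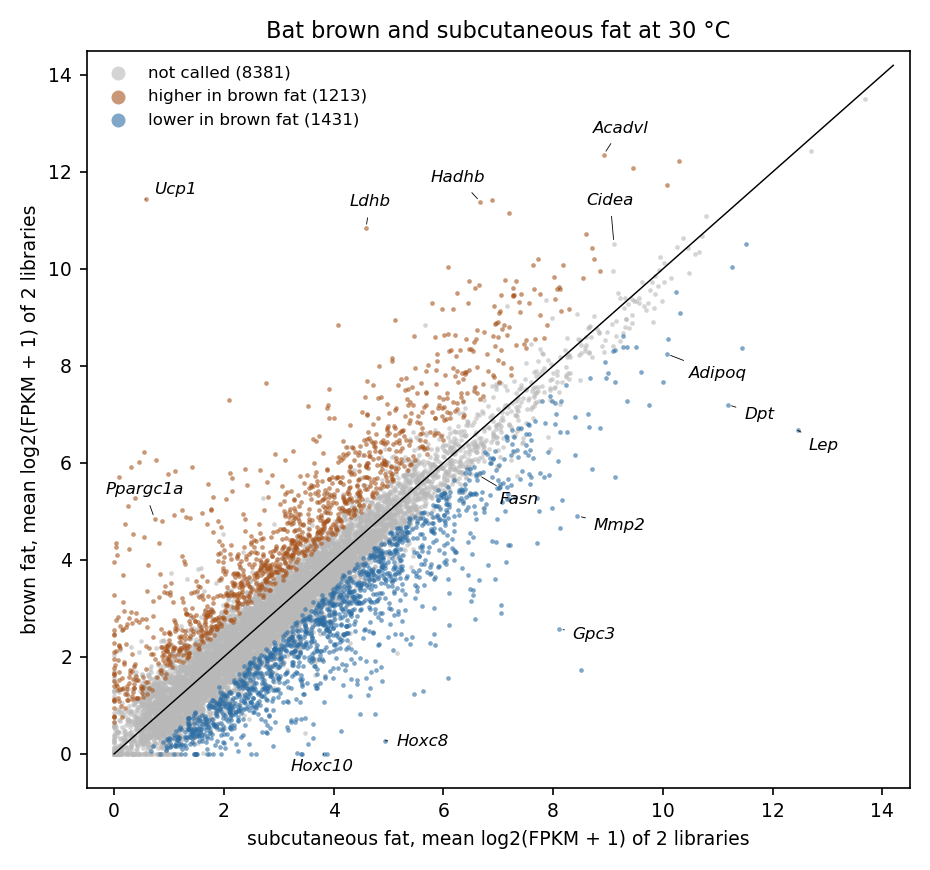
Mean log2(FPKM + 1) of the 2 iBAT libraries (vertical) against that of the 2 sWAT libraries (horizontal) for 11025 genes, with the line of equal values. Brown points are the 1213 genes called higher in iBAT and blue points the 1431 called lower; Ucp1 stands farthest above the line, and Lep, Gpc3 and Hoxc8 lie far below it.

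Heat-making genes were far higher in iBAT. Ucp1 was at 2886 and 2669.8 FPKM in the female and male iBAT libraries and at 0.41 and 0.57 FPKM in sWAT. The iBAT level was 5668 times that of sWAT on the means, and the difference of log2(FPKM + 1) was 10.87 ± 0.35 (SE, limma adjusted p = 3.57e-07), the largest of all genes. Ppargc1a, the coactivator that drives mitochondrial biogenesis, was at 22.6 and 34.3 FPKM in iBAT, at 1.78 FPKM in female sWAT and listed at 0 in male sWAT (4.11 ± 0.56, limma adjusted p = 0.000752). Both genes thus had their lowest iBAT library far above their highest sWAT library. Ckmt2, the mitochondrial creatine kinase of muscle and brown fat, was at 126 and 33.7 FPKM against 0.857 and 0.564 (5.28 ± 0.62, limma adjusted p = 0.000341), with the female iBAT library nearly 4 times the male one.

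Of 35 listed brown fat and thermogenic genes 33 had values and 28 passed the filter on low values. Of those 28, 17 were higher in iBAT and 1 was lower, with a median log2 difference of 1.82 against −0.07 over all 11025 genes. Clstn3, known in mouse fat for a form that guides nerve supply, differed by 3.57 ± 0.32, and the thioesterase Acot11 by 3.53 ± 0.28. Letmd1, a mitochondrial protein of brown fat, was at 47.9 and 58.7 FPKM against 6.94 and 5.73 (2.89 ± 0.29). The nuclear receptors Esrra (2.49 ± 0.23) and Ppara (2.42 ± 0.66) and the coactivator Ppargc1b (2.22 ± 0.38) were higher as well, but Ppara lost its call without the female iBAT (1.59) or the male sWAT library (2.01).

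Of 4 genes of brown fat fate 2 were called. Ebf2, a factor that opens brown fat genes in precursors, was at 19.2 and 21.7 FPKM in iBAT and 6.14 and 4.71 FPKM in sWAT (1.75 ± 0.23, limma adjusted p = 0.000616). Zic1, a marker of classical brown fat in rodents, was at 2.08 and 2.19 FPKM in iBAT and listed at 0 in both sWAT libraries (limma adjusted p = 0.000883). Prdm16, a coregulator of brown fat identity, was at 1.97 and 6.13 FPKM against 0 and 0.537 and did not pass (1.89 ± 0.74, limma adjusted p = 0.0937). Lhx8, a further marker of classical brown fat, also missed the threshold, at 3.14 and 5.07 against 1.66 and 0.315 FPKM (1.42 ± 0.48, limma adjusted p = 0.0563). For both the groups did not overlap, which also held for 7008 of all 11025 genes tested. Prdm16 passed when only the 30 °C bat libraries were fitted (limma adjusted p = 0.0429).

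Several genes that mark brown fat in the mouse were abundant in bat sWAT. Cidea, a protein of lipid droplets, was at 1798 and 1198 FPKM in iBAT and at 481 and 632 FPKM in sWAT, and did not pass (1.41 ± 0.48, limma adjusted p = 0.0572). It passed with only the 4 compared libraries (limma adjusted p = 0.043). Cox7a1, the cytochrome oxidase subunit of heart, muscle and brown fat, was at 779 and 782 FPKM against 142 and 167 (2.33 ± 0.26, limma adjusted p = 0.000253). Dio2, which activates thyroid hormone, was at 0.129 to 0.453 FPKM in the 4 libraries. Nrg4, a secreted factor of brown fat, was at 15.1 and 20.3 FPKM against 17.1 and 21.5, and S100b, a nerve growth signal, at 21.3 and 39.5 against 19.1 and 38.6, so that the groups of both overlapped. Ntrk3, a neurotrophin receptor, was the 1 member called lower, at 0.838 and 1.39 FPKM against 24.6 and 6.87 (−2.76 ± 0.48, limma adjusted p = 0.00265).

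**Figure D2:**
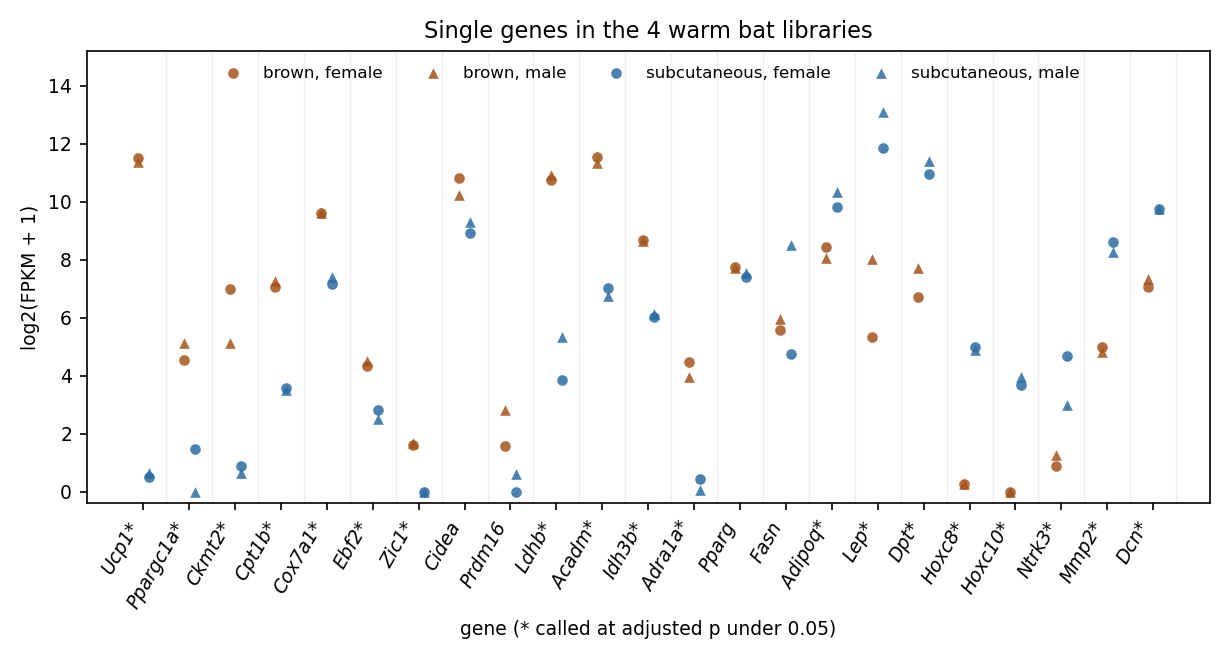
log2(FPKM + 1) of 23 named genes in each of the 4 libraries: brown symbols iBAT, blue symbols sWAT, circles female, triangles male; an asterisk marks a called gene. Ucp1, Ckmt2 and Adra1a are near the floor in sWAT, Hoxc8 and Hoxc10 near it in iBAT, and Cidea and Pparg are high in all 4.

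Most measured subunits of the respiratory chain were higher in iBAT. The chain passes electrons from NADH and succinate through complexes I to IV to oxygen, and its proton gradient drives ATP synthase or, through UCP1, heat. Of 52 tested nuclear subunits 43 were called higher and 2 lower, with a median of 1.63. By complex, 21 of 23 were higher for I, 4 of 4 for II, 6 of 6 for III, 5 of 7 for IV and 7 of 12 for ATP synthase. Summed FPKM of the list made up 6.78% and 6.84% of all FPKM in the iBAT libraries and 2.01% to 2.19% in sWAT. Complex II kept only 2 or 3 calls when 1 library was left out.

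Ndufv1, which takes up the electrons of NADH, was at 651 and 606 FPKM in iBAT against 82.8 and 89.9 in sWAT (2.85 ± 0.21, limma adjusted p = 2.98e-05). Sdhb of succinate dehydrogenase was at 966 and 793 against 127 and 151 (2.65 ± 0.30). Uqcr11 of complex III (3.16 ± 0.29) and its cytochrome Cyc1 (2.52 ± 0.25) had larger differences than the cytochrome oxidase subunit Cox6a1 (1.91 ± 0.25). Cox5b, a further subunit, was at 472 and 420.3 against 122 and 175 FPKM. Whether complexes differed from each other was not tested.

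ATP synthase was divided. Atp5b, the catalytic beta subunit, was at 3869 and 4892 FPKM in iBAT and 634 and 785 FPKM in sWAT (2.62 ± 0.33, limma adjusted p = 0.000467). Atp5g3, which encodes the c subunit of the rotor ring, went the other way, at 18.2 and 18 FPKM in iBAT against 61.2 and 80.4 in sWAT (−1.90 ± 0.26, limma adjusted p = 0.000739). The c subunit also has other genes: Atp5g2 was at 463 and 617 against 401 and 300.3 FPKM, and it did not pass (0.62 ± 0.24). Atp5j, a coupling factor of the stalk, was lower too, at 111 and 146 against 268 and 259 FPKM (−1.05 ± 0.20). Both lower subunits remained called without any 1 of the 4 libraries. The split of reads between the c subunit genes, which encode the same mature protein, is uncertain.

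Further mitochondrial genes were also higher. Of 31 mitochondrial ribosome proteins, which make the subunits encoded in mitochondrial DNA, 23 were higher and none lower (median 0.85); Mrps31 (1.79 ± 0.29) and Mrpl10 (1.70 ± 0.29) were examples. That count was 14 without the male iBAT library and 15 without either sWAT library. Of 18 cytosolic ribosome proteins none was higher and 2 were lower, among them Rpl30 (−0.82 ± 0.25), and neither was called without the female sWAT library or without either iBAT library. Over all genes 11% were higher and 13% lower, and the lower count of the cytosolic list was near that share. Of 29 mitochondrial carriers 13 were higher and 1 lower. Slc25a42, which brings coenzyme A into mitochondria, was at 50.6 and 59 FPKM against 3.44 and 3.26 (3.68 ± 0.17, limma adjusted p = 3.83e-06). Slc25a10, the dicarboxylate carrier, was lower at 14.6 and 15.6 against 21.6 and 31.3 FPKM (−0.75 ± 0.20), a call that was lost without the male sWAT library (−0.49) or without either iBAT library.

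The pathways that feed the chain were higher as well. Of 18 genes of the TCA cycle and pyruvate dehydrogenase 17 were higher and none was lower (median 1.84). Idh3b, a subunit of isocitrate dehydrogenase, was at 408 and 396 FPKM in iBAT and at 64.9 and 68.6 FPKM in sWAT (2.57 ± 0.26, limma adjusted p = 0.000173). Its partner Idh3g (2.42 ± 0.23) and Sucla2, the ATP-forming succinyl-CoA ligase subunit (2.62 ± 0.27), were higher by similar sizes. Suclg2, of the GTP-forming ligase, was the member that did not pass, at 6.32 and 9.15 against 8.19 and 9.9 FPKM.

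Fatty acid oxidation had the largest median of the fuel lists. Of 24 listed genes 21 had values and 20 passed the filter; of these 18 were higher in iBAT and none lower (median 2.44). They made up 5.18% to 5.47% of summed FPKM in iBAT and 0.660% to 0.677% in sWAT. Cpt1b, which admits fatty acids to mitochondria, was at 134 and 153 FPKM against 10.9 and 10.3 (3.63 ± 0.23, limma adjusted p = 1.87e-05). Cpt1a, the form that liver uses, was at 9.04 and 4.09 against 8.98 and 4.38 FPKM, and the female library was the higher one in both depots.

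The enzymes of the spiral were high in both iBAT libraries. Acadvl, which starts on the longest chains, was at 5246 and 5239.8 FPKM against 536 and 438 (3.43 ± 0.24). Acadm, for medium chains, was at 2963 and 2549.6 against 129 and 107 (4.54 ± 0.25, limma adjusted p = 1.20e-05), and Hadhb of the trifunctional protein at 2455 and 2909 against 91.5 and 112 (4.71 ± 0.29). Etfdh, which passes the electrons on to the chain, differed by 3.09 ± 0.24. No iBAT and sWAT values overlapped in these 4 genes, as in 7008 of all 11025 genes tested.

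Glucose use was mixed. Ldhb, the heart-type lactate dehydrogenase subunit, had the largest difference after Ucp1 among genes higher in iBAT, at 1735 and 1929 FPKM in iBAT and 13.4 and 39.2 FPKM in sWAT (6.25 ± 0.45, limma adjusted p = 2.98e-05). Ldhd, which oxidises D-lactate, was higher by 2.73 ± 0.25. Of 11 tested genes of glycolysis and glucose uptake 6 were higher, among them enolase Eno1 (1.36 ± 0.23) and Tpi1 (1.34 ± 0.32), but the count was 3 without the male iBAT or the female sWAT library, which also cost Tpi1 its call. Slc2a4, the insulin-regulated glucose transporter, was at 63.8 and 66.4 against 23.5 and 58.8 FPKM and did not pass (0.79 ± 0.41). Its difference was 1.43 without the male sWAT library. Pdk4, the kinase that shuts pyruvate dehydrogenase, was at 774 and 428 against 109.8 and 34.4 FPKM (3.20 ± 0.54, limma adjusted p = 0.00236).

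Triglyceride handling differed in some steps only. Of 21 tested genes of triglyceride synthesis and lipolysis 7 were higher and none lower. Gpd2, the mitochondrial glycerol phosphate dehydrogenase, was at 75.5 and 38.3 FPKM against 1.25 and 0.725 (4.80 ± 0.40, limma adjusted p = 6.33e-05). Glycerol kinase (Gk), which lets a fat cell reuse glycerol, was at 5.33 and 6.71 against 0.282 and 0.147 (2.53 ± 0.35). Pnpla2, the first lipase of lipolysis, was at 4274 and 5332 against 1078 and 1468 FPKM (1.92 ± 0.27). Plin5, which ties droplets to mitochondria, differed by 2.25 ± 0.23. The hormone-sensitive lipase Lipe was at 285 and 350.5 against 342 and 430.5 FPKM and the droplet coat protein Plin1 at 977 and 1045 against 763 and 1256, so that the groups of both overlapped.

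Fatty acid synthesis showed no depot difference that held. Of 15 tested genes none was higher and 1 was lower, the lipogenic factor Mlxipl (−0.84 ± 0.27), a call that was lost under most of the alternative settings. Fasn, fatty acid synthase, was at 46.3 and 60.5 FPKM in iBAT and at 25.9 and 365 FPKM in sWAT. Its difference was −0.88 ± 1.27, and 1.00 without the male sWAT library. Acly, which supplies acetyl-CoA, was at 28.5 and 27.2 against 12.4 and 41.2 FPKM. In both genes the female sWAT library was the lowest and the male sWAT library the highest of the 4.

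Some genes of the noradrenaline response were higher in iBAT. Of 20 tested adrenergic and cAMP genes 6 were higher and 2 lower, where 11% of all genes were higher and 13% lower. The lower count was thus near the share of all genes. The 2 lower genes, Adra1d and Adra2a, reached at most 0.153 FPKM in iBAT. Adra1a, an alpha-1 receptor, was at 21.4 and 14.7 FPKM in iBAT against 0.371 and 0.0556 in sWAT (3.96 ± 0.28, limma adjusted p = 2.98e-05). Adrb1 was at 8.55 and 13.5 against 2.39 and 2.09 (1.86 ± 0.25, limma adjusted p = 0.000678). Adrb3, the beta-3 receptor of rodent fat cells, was at 44.7 and 33.4 against 33.2 and 6.38 FPKM and did not pass (1.32 ± 0.61, limma adjusted p = 0.151). Its difference was 2.42 without the female sWAT library. Adra2a, which restrains lipolysis, was lower, at 0.0378 and 0.119 against 2.23 and 2.21 FPKM (−1.58 ± 0.32, limma adjusted p = 0.00619). Inside the cell, the protein kinase A subunits Prkar2b (1.46 ± 0.37) and Prkaca (1.00 ± 0.25) and the anchor Akap1, which holds the kinase at mitochondria (2.28 ± 0.25), were higher. Prkar2b and Prkaca lost their calls without the female sWAT or the male iBAT library, and Prkaca also without the female iBAT library.

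**Figure D3:**
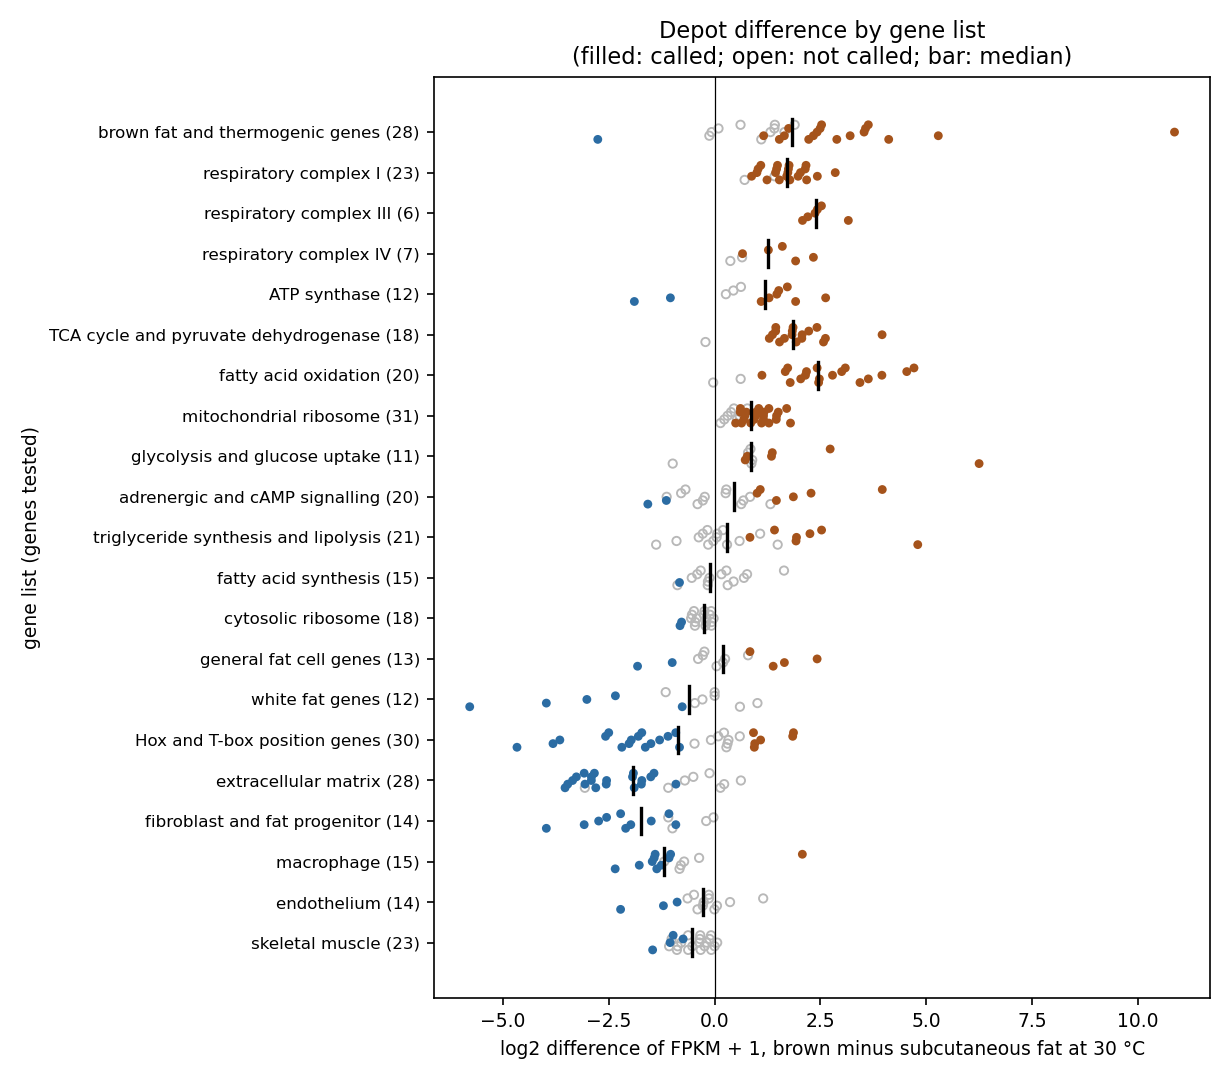
Difference of log2(FPKM + 1), iBAT minus sWAT at 30 °C, for the tested genes of 21 lists, 1 point a gene, filled where called, with a bar at each list's median. The respiratory, TCA cycle and fatty acid oxidation lists lie above 0 with few exceptions. The extracellular matrix list lies below 0 except for 3 of 28 genes, and the fibroblast list lies below it throughout.

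Several white fat genes were higher in sWAT. Of 12 tested members none was higher in iBAT and 5 were lower (2 to 4 without 1 library). Lep, the satiety hormone leptin, was at 3674 and 8635 FPKM in sWAT and at 39.1 and 259 FPKM in iBAT (−5.79 ± 1.19, limma adjusted p = 0.00638). The male library was the higher one in both depots, and the difference missed the threshold without the female iBAT library (−4.44, limma adjusted p = 0.0566). Dpt, dermatopontin, was at 1995 and 2697 against 103 and 208 FPKM (−3.98 ± 0.49). Sfrp5, a Wnt inhibitor of white fat, was at 7.73 and 65.5 in sWAT against 1.41 and 2.67 (−3.02 ± 0.81), and Npr3, which clears natriuretic peptides, at 43 and 22.9 against 8.82 and 3.15 (−2.34 ± 0.63). Npr3 lost its call without the female sWAT (−1.91) or the male iBAT library (−1.72), and Sfrp5 without the male sWAT (−1.55) or without either iBAT library.

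Genes shared by all fat cells had calls in both directions, and the count of lower ones was near the 13% of all genes. Over all genes 11% were higher. Pparg, the master factor of fat cells, was at 215 and 209 FPKM in iBAT and 169.9 and 187 FPKM in sWAT (0.25 ± 0.17, limma adjusted p = 0.326). Adipoq, adiponectin, was lower in iBAT, at 347 and 265 against 901 and 1279 FPKM (−1.82 ± 0.35, limma adjusted p = 0.00482). Pck1, which makes glycerol phosphate in fat, was higher at 3632 and 3174 against 1223 and 958 (1.65 ± 0.28). Lpl, which frees fatty acids from blood lipoproteins, was lower at 1843 and 1172 against 2354 and 3684 FPKM, a call that ended under median-ratio scaling (−0.93) and without the male library of either depot. Of 13 tested members 4 were higher and 2 lower, and 2 were higher without the male iBAT or the female sWAT library.

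Many position genes were higher in sWAT. Hox genes keep a record of where along the head-to-tail axis a tissue arose, with low numbers towards the head and high numbers towards the tail. Hoxc8 was at 31 and 28.4 FPKM in sWAT and at 0.2 and 0.211 FPKM in iBAT (−4.67 ± 0.21, limma adjusted p = 3.83e-06), and Hoxc6 at 18.7 and 14.6 against 0.339 and 0.446 (−3.66 ± 0.23). Hoxc10 was at 11.9 and 14.4 FPKM in sWAT and listed at 0 in both iBAT libraries, Hoxc9 at 4.73 and 4.6 and listed at 0, and Hoxc11 at 2.74 and 1.9 and listed at 0 (limma adjusted p = 2.51e-05, 2.51e-05 and 0.000299). No value of these 5 genes overlapped between depots, as was so for 7008 of all 11025 genes tested.

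The Hoxa cluster changed direction along its length. Hoxa2, Hoxa3 and Hoxa5 were higher in iBAT, with Hoxa5 at 29.2 and 35 FPKM against 8.79 and 7.59 (1.84 ± 0.21, limma adjusted p = 0.00032) and Hoxa3 at 7.08 and 8.43 against 1.55 and 1.26 (1.86 ± 0.17). All 6 tested genes from Hoxa6 on were lower, Hoxa13 among them. Hoxa6 was at 3.74 and 2.93 against 16.7 and 11.8 FPKM (−1.80 ± 0.21), and Hoxa11 was at 4.29 and 5.73 FPKM in sWAT and listed at 0 in iBAT. Among 24 tested Hox genes of the 4 clusters 5 were higher and 15 lower. Of 7 Hoxc genes 6 were lower and of 5 Hoxb genes 3. Of 3 Hoxd genes none was lower, and Hoxd1 and Hoxd8 were higher. Hoxa2 lost its call without the male iBAT or without either sWAT library, and Hoxd8 without the male sWAT or without either iBAT library.

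Other position factors gave small differences. En1 was at 3.01 and 3.78 FPKM in iBAT against 0.898 and 1.71 (0.95 ± 0.27) and Shox2, a limb factor, at 0.951 and 0.884 against 2.67 and 2.58 (−0.92 ± 0.23). Shox2 lost its call on leaving out any 1 of the 4 libraries, and En1 on leaving out the female sWAT or either iBAT library. Tbx15, which separates subcutaneous and brown from visceral fat in mice, was at 8.89 and 13.5 against 11.2 and 7.7 FPKM, and the groups overlapped. Over the whole list of Hox, T-box and related genes 6 of 30 were higher and 16 lower. They numbered 3 higher without either iBAT library, and 2 higher and 7 lower with the filter of 5 FPKM, which leaves fewer genes to test.

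**Figure D4:**
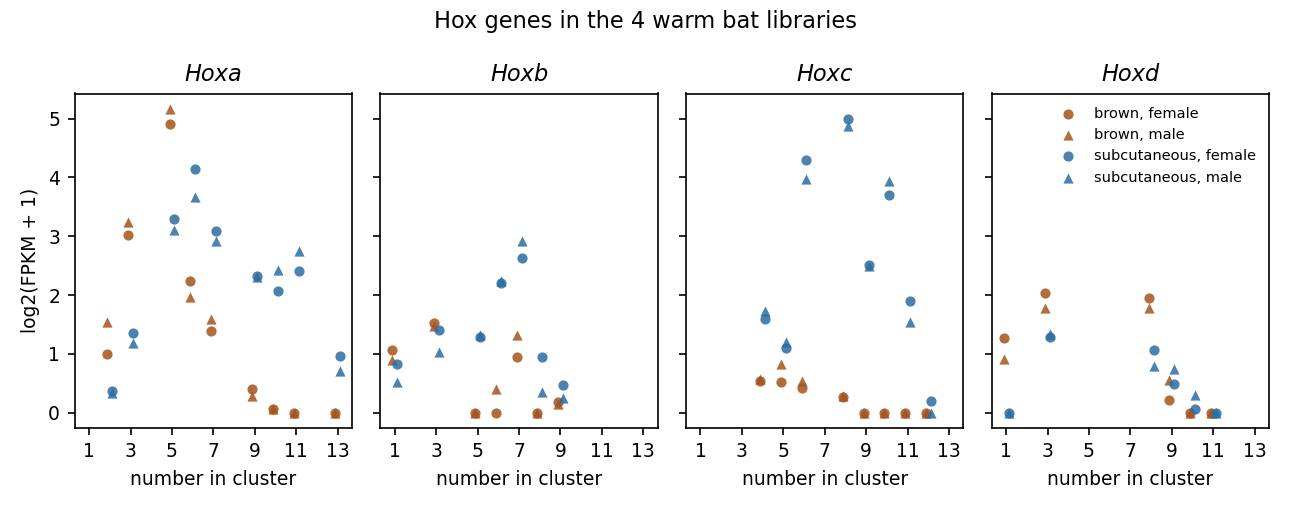
log2(FPKM + 1) of the 30 Hox genes with values, by cluster (panels) and number in the cluster (horizontal), in iBAT (brown) and sWAT (blue), circles female and triangles male. In Hoxa the brown symbols are above the blue ones up to Hoxa5 and below them from Hoxa6 on, and in Hoxc the blue symbols are above throughout, up to Hoxc11.

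Most matrix genes were lower in iBAT. Of 28 extracellular matrix genes 20 were lower and none higher (median −1.93), and the list made up 0.265% to 0.291% of summed FPKM in iBAT and 1.08% to 1.43% in sWAT. Mmp2, a collagenase, was at 391 and 307 FPKM in sWAT and 31.1 and 27 FPKM in iBAT (−3.53 ± 0.35, limma adjusted p = 0.00015). Col1a1 of fibrillar collagen was at 75.3 and 104 against 8.7 and 10.5 (−3.08 ± 0.40), and Col6a1 at 76.7 and 110.4 against 7.94 and 9.45 (−3.27 ± 0.24). Col6a3, whose product joins those of Col6a1 and Col6a2 in collagen VI, was at 38.3 and 52.9 FPKM in sWAT against 45.6 and 54 FPKM in iBAT. It did not pass (0.14 ± 0.26). Timp1, an inhibitor of matrix proteases, was at 39.8 and 56.9 FPKM in sWAT and lower in iBAT, at 6.43 and 8.11 FPKM (−2.56 ± 0.31).

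Markers of other cells moved with these genes. Of 14 tested fibroblast and progenitor genes 10 were lower in iBAT and none higher, and the list summed to 344 and 493 FPKM in iBAT against 3393 to 4095 FPKM in sWAT. Pi16, a marker of early progenitors, was at 30.7 and 31.6 FPKM against 238 and 192 (−2.74 ± 0.32), and decorin (Dcn) at 133 and 159 against 854 and 857 (−2.55 ± 0.21). Most of the sum came from Dpt and Dcn in both depots. The lists are not independent: Dpt is also on the white fat list, and Dcn, Lum, Col1a1 and Fbn1 are also on the matrix list. Pdgfra, which defines fat progenitors in mice, was at 2.1 and 0.782 against 3.31 and 0.691 FPKM, with the female library higher in each depot. In bulk tissue fewer cells of a type and less RNA per cell cannot be told apart, and the part of these cells in the matrix genes was not tested.

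Macrophage markers were lower in iBAT in 9 of 15 tested members and higher in 1, and their sum was 177 and 178 FPKM against 378 to 500 FPKM in sWAT. Csf1r, the growth factor receptor of macrophages, was at 12.2 and 11.8 against 35.2 and 32.7 FPKM (−1.43 ± 0.29), and Msr1, a scavenger receptor, at 2.54 and 3.28 against 28.5 and 12.4 (−2.35 ± 0.55). Siglec1, a lectin of resident macrophages, went the other way, at 13.9 and 9.89 against 1.85 and 2.22 FPKM (2.07 ± 0.26, limma adjusted p = 0.000516). The count of lower members was 2 without the female sWAT library, 3 without the male iBAT library and 4 without the female one, and Msr1 lost its call without the female library of either depot.

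Vessel and nerve lists had few calls. Of 14 endothelial genes 3 were lower and none higher, where 13% of all 11025 genes were lower. Plvap, of vessel wall pores, was at 13.5 and 9.29 against 51.5 and 60.8 FPKM (−2.22 ± 0.18, limma adjusted p = 6.33e-05), while Cdh5, which joins endothelial cells, was at 43.9 and 45.1 against 53.1 and 55.5 and did not pass (−0.28 ± 0.24). Robo4 (−1.21 ± 0.31) lost its call without the female sWAT or the male iBAT library, and Cldn5 (−0.89 ± 0.25) without any 1 of the 4. Among 10 Schwann cell and nerve genes 3 were higher and Pmp22 was lower, where 11% of all genes were higher. Sox10, a factor of that lineage, was at 0.743 and 1.28 against 0.0879 and 0.0922 FPKM (0.87 ± 0.23), and without the male iBAT library none of the 3 was called, while without either sWAT library 1 was. Pmp22 lost its call without the male sWAT or without either iBAT library. The red cell list summed to 742 and 829 FPKM in iBAT and 881 and 900.3 FPKM in sWAT, with none of its 3 tested genes called.

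Skeletal muscle genes were checked because cold sWAT holds them. They summed to 226 and 236 FPKM in warm sWAT and 103 and 130 FPKM in warm iBAT, against 1031 and 2116 FPKM in sWAT at 10 °C. Most of the warm sum came from Myl2, Tpm2 and Tnnt1, which were also present in aWAT; Myl2 was at 146 and 152 FPKM in sWAT and 63.9 and 79 FPKM in iBAT. Every other listed gene with a value reached at most 3.82 FPKM in any of the 4 libraries. Myoglobin (Mb) was at most 0.0696 FPKM, and nebulin (Neb) and calsequestrin (Casq1) were listed at 0 in all 4. Of 23 tested members 4 were called lower in iBAT, Myl2 (−1.05 ± 0.22), Tnnt1, Des and Pvalb, a share near the 13% of all genes. None of the list was called without the female iBAT library, 1 without the female sWAT library, 2 without the male iBAT library and 7 without the male sWAT library.

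The remaining genes with the largest differences belong to no single group. Higher in iBAT were Serhl, a serine hydrolase-like gene (5.70 ± 0.38), the kininogen Kng2 (5.61 ± 0.39), the potassium channel Kcnk16 (5.61 ± 0.44) and Enpp6, a choline phosphodiesterase (5.56 ± 0.38). Pmp2, a fatty acid binding protein of myelin, was at 152 and 159.8 FPKM against 2.84 and 3.79 (5.19 ± 0.39). In the mouse libraries Pmp2 reached at most 0.0913 FPKM, and Kcnk16 was listed at 0 in all of them. Which bat gene gave the reads under either identifier is uncertain. Etnppl, which breaks down phosphoethanolamine (4.90 ± 0.26), glycerate kinase Glyctk (4.88 ± 0.55), the elongation factor Eef1a2 (4.86 ± 0.37) and cysteine dioxygenase Cdo1 (4.75 ± 0.93) were also among them. Lower in iBAT were Gpc3, a cell surface proteoglycan at 193 and 390.1 FPKM in sWAT against 2.77 and 8.43 (−5.53 ± 0.55), Prrt4 (−4.52 ± 0.31), the cholecystokinin receptor Cckbr (−4.33 ± 0.38) and the protease Mmp19 (−4.23 ± 0.44). Scd4 was at 99.9 and 1319.5 FPKM in sWAT against 1.21 and 4 (−6.78 ± 1.58, limma adjusted p = 0.0124). It belongs to a family of close relatives, so its reads may be shared, and it missed the threshold without the male sWAT (−4.92) or the female iBAT library (−6.19).

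The same depots were then set against each other at 10 °C. A limma interaction asked whether the depot difference changed with temperature, and it called 63 of 11025 genes, 0.571%, of which 58 had a lower and 5 a higher signed difference (iBAT minus sWAT) in the cold. Both contrasts use the warm libraries. Of the 2644 genes called between the warm depots 4 were called in it. None of 18 core genes (among them Ucp1, Cidea, Prdm16, Hoxc10, Lep and Pparg) was among the 63. A gene that was not called need not be unchanged, since each group had only 2 libraries. Before adjustment 1311 of the 11025 genes had a limma p under 0.05 for this term. The difference of Ucp1 was 10.87 in the warm and 12.08 in the cold on the scale of log2(FPKM + 1), and that of Lep −5.79 and −6.94. Hoxc10 was listed at 0 in both iBAT libraries at 10 °C too. Of 23 tested muscle genes 18 were among the lower genes, led by Tnnc1, which was at 0.179 to 0.515 FPKM in warm sWAT and at 107 and 287 FPKM in cold sWAT. Without the male cold sWAT library the interaction called 8 lower genes and 1 higher, and without the female one 23 and 2.

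**Figure D5:**
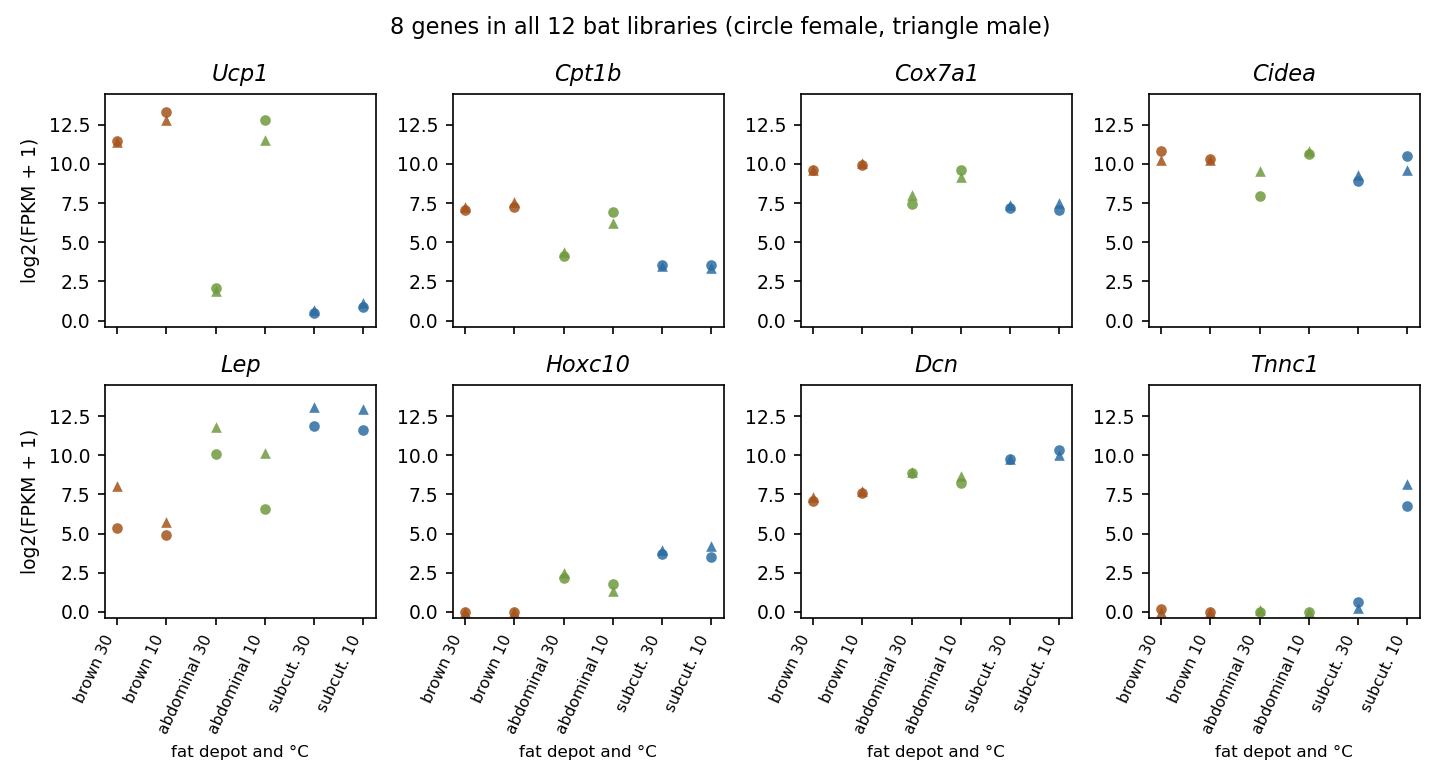
log2(FPKM + 1) of 8 genes in the 12 bat libraries, by depot and temperature, circles female and triangles male. Hoxc10 and Dcn keep their depot order at both temperatures, Ucp1 in abdominal fat is low at 30 °C and high at 10 °C, and Tnnc1 is high only in the 2 cold sWAT libraries.

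Last, the warm depot difference of the bat was compared with that of the mouse, over 9400 genes that passed in both species. A limma interaction called 3393 of them, 36.1%. The median of this term was 0.48, and −0.05 with median-ratio scaling, which turned 2739 higher and 654 lower calls into 1071 and 1372, so terms are given less the median of 0.48 while their p-values are those of the unshifted terms. Ucp1 differed more between the depots of the bat (10.87) than of the mouse (5.40, with mouse iBAT at 192 and 49.9 FPKM), a term of 4.99 (limma adjusted p = 0.000365). Ppargc1a did too (4.11 and 1.28, term 2.36), but without the male bat sWAT library it missed the threshold.

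Other brown fat genes divided the mouse depots more. Cox7a1 differed by 2.33 in the bat and 7.59 in the mouse (term −5.73, limma adjusted p = 1.06e-05), Cidea by 1.41 and 6.45 (−5.52) and Cpt1b by 3.63 and 6.16 (−3.01). In warm mouse sWAT Cidea was at 10.9 and 15 FPKM and Cox7a1 at 5.8 and 6.55 FPKM. In warm bat sWAT they were at 481 and 632 FPKM and at 142 and 167 FPKM. These levels cannot be compared between species, since how bat reads received mouse identifiers is not given. Ntrk3 was higher in mouse iBAT (4.26) and lower in that of the bat (−2.76), a term of −7.50 (limma adjusted p = 1.06e-05). For Hoxc9 (term −1.16), Hoxc10 (−1.08), Zic1 (−0.36), Ebf2 (−0.11) and Pparg (−1.09) the species term did not pass, by the p-values of the unshifted terms. A gene whose term did not pass need not have the same depot difference in both species. Warm mouse iBAT held skeletal muscle genes that summed to 2423 to 3154 FPKM, and 18 of the 23 muscle genes tested had a lower term in the bat. The part of this muscle RNA in the terms of other genes was not tested.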

How the data were processed

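RNA sequencing of fat was analysed from 4 bat libraries, within a fit to all 12 bat libraries. The RNA came from a column kit for fatty tissue, per the labels. The authors deposited 1 table of FPKM values for 14871 genes, and the submitters' processing notes name CASAVA 1.8. Aligner, counter, genome build and how bat reads received mouse identifiers: not given in the sources used here. Of the identifiers 14723 matched a symbol and 148 did not. With no counts, no intervals of counting error were computed. Relative depth was read from genes under 0.3 FPKM, on the assumption that their values are whole multiples of 1 fragment. Ratios of whole numbers up to 5 were matched within 0.5% in 47.0% to 67.8% of genes at the depth found, against 1.5% to 2.8% at other depths.

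From these values log2(FPKM + 1) was computed (R 4.3.3). Genes with at least 1 FPKM in 2 bat libraries (11025) were fitted with limma 3.58.1, with group means for 6 groups and a trended prior, so that the spread of the 4 libraries is taken from all 12. Calls had a Benjamini-Hochberg adjusted p under 0.05 over all genes, two-sided. A permutation of 2 against 2 could not reach this. The cold interaction used the same fit, and the species interaction all 20 libraries. Self-tests on simulated data were run.

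The comparison and the gene lists were chosen with earlier results of these data known. Named genes are the 15 in each direction with the largest called difference, no overlap between depots, at least 5 FPKM on average in the higher depot and an ordinary gene symbol, plus 18 core genes and up to 4 genes a list, and for interactions up to 6 a direction. Some genes that this rule picks are not reported here. Further list genes were named to describe a pathway, after their values were seen. Elovl3, Cox8b and Scd1 were not analysed here. Alternatives were other pseudocounts, filters, scalings and fits, and leaving out each library. The 35 lists were described by counts, with no test of a list. Over all 11025 genes 11% were higher and 13% lower, and list counts are to be read beside these shares. Those not described in the text gave few calls: fatty acid uptake 3 higher and 1 lower of 15, cholesterol synthesis 1 and 2 of 16, proteasome 3 and 1 of 26, cell cycle 1 and 0 of 10, clock 1 and 1 of 15, epithelium 0 and 1 of 5, B lymphocytes 0 and 1 of 4, T lymphocytes 0 and 0 of 2, mesothelium 0 and 0 of 7 and lymph node stroma 0 and 1 of 2. On leaving out 1 library these moved to 1 to 3 higher and 0 to 1 lower for fatty acid uptake, 0 higher and 1 to 3 lower for cholesterol synthesis, 1 to 3 higher and 0 to 1 lower for the proteasome, and 0 to 1 higher for the cell cycle and the clock. The single lower gene of the B lymphocyte and of the stroma list was lost in some of these fits, and that of the clock and epithelium lists in none.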

Additional observations from a re-analysis of the deposited data

Results flagged for a closer look

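Each value here compares signed depot differences, iBAT minus sWAT of log2(FPKM + 1), less the median of all genes for that term, and each passed a limma test of the term without that shift. A positive term means a higher signed difference, not a larger gap between depots. For 11 named genes the iBAT against sWAT difference of the bat changed with temperature. The term was positive for Fetub, a liver-type secreted protein (3.71, from a difference of 0.06 at 30 °C to 3.61 at 10 °C), Asap1 (3.10, from 0.04 to 2.98), the ethanolamine kinase Etnk2 (2.89, from 1.48 to 4.20) and the phosphodiesterase Pde10a (2.59, from −0.12 to 2.31). Fam162b had a term of 2.72 and went from −1.94 to 0.61, so its gap was smaller in the cold. The term was negative for Mylpf (−4.99), Tnnc2 (−5.06), Myh8 (−5.18), Tcap (−5.44), Tnni2 (−5.90) and Tnnc1 (−6.96), muscle genes present in the cold sWAT libraries, which lay between −1.08 and −0.10 at 30 °C and between −7.46 and −5.45 at 10 °C. Asap1 lost its call on leaving out any 1 of the 8 libraries compared, Fam162b on leaving out the male cold sWAT library, and Etnk2 and Pde10a on leaving out either cold sWAT library.

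For 18 named genes the depot difference at 30 °C was not the same in bat and mouse. The term, bat minus mouse, was positive for the immune genes Ighg1 (6.59), Trbc2 (6.47), Ccl5 (6.40) and Cd52 (5.67), whose depots differed by −0.45 to 0.17 in the bat and by −7.19 to −6.60 in the mouse, where B and T lymphocyte lists in warm sWAT summed to 966 to 2308 and 468 to 490 FPKM. It was positive with a wider gap in the bat for the desmosome gene Dsg2 (6.13, with 4.24 in the bat and −2.36 in the mouse), Ucp1 (4.99, with 10.87 and 5.40) and Ppargc1a (2.36, with 4.11 and 1.28). For Tbx15 (0.59) the difference was 0.22 in the bat, where it was not called, and −0.85 in the mouse. Ppargc1a lost its call without the male bat sWAT library, and Tbx15 under every other scaling tried.

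The term was negative with a narrower gap in the bat for Cpt1b (−3.01, with 3.63 in the bat and 6.16 in the mouse), Cidea (−5.52, with 1.41 and 6.45) and Cox7a1 (−5.73, with 2.33 and 7.59). It was negative with a wider gap in the bat for Lep (−5.84, with −5.79 and −0.43) and Scd4 (−7.15, with −6.78 and −0.11). Ntrk3 (−7.50) had opposite signs, −2.76 and 4.26. The muscle genes Tnni2 (−7.08), Atp2a1 (−7.39), Ckm (−7.84) and Pvalb (−8.01) lay between −1.47 and −0.36 in the bat and between 6.06 and 6.49 in the mouse. The 4 muscle genes lost their calls on leaving out any 1 of the libraries compared, Lep without the male mouse iBAT, the female mouse sWAT, the male bat sWAT or the female bat iBAT library, and Scd4 without either of the last 2. For Ighg1 and Trbc2, members of families of near-identical segments, the gene behind the reads is uncertain.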

How the results depend on the processing

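Over 16 alternatives the counts of the warm depots stayed within 1.5 times of 1213 higher and 1431 lower genes, except for the lower count without the female iBAT, the male iBAT or the female sWAT library. Leaving out 1 library gave 813 to 863 higher and 751 to 960 lower genes. Where a library was left out, the lone sample was assumed to vary like the other groups. Of 126 named genes called, 93 kept the call under every alternative that could test them, 33 lost it under at least 1, and none reversed. Of 41 further called genes, 27 kept it and 14 lost it. Some genes that were not called changed sign. On leaving out 1 library Acly ranged from −0.55 to 1.10, Tbx15 from −0.056 to 0.50, Dio2 from −0.25 to 0.11, Hbb-bt from −0.23 to 0.076, Cd3e from −0.33 to 0.10, Fasn from −2.76 to 1.00, Nrg4 from −0.33 to 0.080, S100b from −0.40 to 0.58, Suclg2 from −0.45 to 0.020, Cpt1a from −0.52 to 0.45, Plin1 from −0.31 to 0.41, Col6a3 from −0.092 to 0.36, Pdgfra from −0.87 to 0.48, Mccc1 from −0.048 to 0.52 and Coq8b from −0.080 to 0.38. Under other scalings Dio2 was 0.0059, S100b −0.014, Cpt1a 0.029 and 0.035 and Plin1 −0.070 and −0.063. The median of all genes was −0.07, and −0.15 to −0.01 under other scalings.

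For the temperature term, higher genes numbered 2 with a pseudocount of 0.1, 12 without a filter and 3 with at least 5 FPKM, against 5, and 1 to 8 without 1 library. Lower genes numbered 29 with a pseudocount of 0.1 and 32 with at least 5 FPKM, against 58, and 8 to 50 without 1 library. For the species term, higher genes numbered 1641 with at least 5 FPKM, 1071 with median-ratio scaling, 1253 with quantile normalization and 1717 when scaled without the 10 highest genes, against 2739, and 1650 to 2425 without 1 library. Lower genes numbered 1372 with median-ratio scaling and 1297 with quantile normalization, against 654, and 403 to 624 without 1 library. The cause was not tested, other than that a filter leaves fewer genes and leaving out a library fewer samples.

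With sex as replicate block limma called 1311 higher and 1558 lower genes. The labels give only a shared sex, and do not say whether the samples of one sex share an animal. The female minus male differences of iBAT and sWAT correlated at 0.2935 across genes, and 2 pairs cannot show a pairing. Depth limits low genes in iBAT most.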

Other observations

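The groups in this section were put together after the values were seen, so their counts describe and support nothing. Enzymes that break down the branched-chain amino acids leucine, isoleucine and valine were higher in warm bat iBAT than sWAT in 15 of 16 tested genes, and none was lower (median 1.63, limma). Bckdha of the branched-chain ketoacid dehydrogenase was at 272 and 273 FPKM in iBAT and 29.6 and 36 FPKM in sWAT (3.02 ± 0.24). Aldh6a1 of the valine branch (2.52 ± 0.17), Ppm1k, the phosphatase that turns the dehydrogenase on (2.31 ± 0.30), and Pccb of propionyl-CoA carboxylase (2.12 ± 0.17) were further examples. Mccc1 was the 1 gene that did not pass, at 1.68 and 0.805 against 1.01 and 0.737 FPKM, while its partner subunit Mccc2 was at 53.2 and 52.2 against 7.29 and 14.9 (2.22 ± 0.30).

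Of 9 coenzyme Q synthesis genes 5 were higher and none lower. Coq8a, a kinase-like protein of that pathway, was at 846 and 869.8 against 83 and 93.2 FPKM (3.27 ± 0.24), while its paralog Coq8b was at 8.16 and 8.67 against 8.95 and 6.25 and did not pass (0.15 ± 0.23).

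Ucp2, a relative of Ucp1 that is common in immune cells, was lower in iBAT, with a sWAT level of 77.9 and 45 FPKM (−2.04 ± 0.38), beside macrophage markers that were lower too, and their part in it was not tested. Of 6 IGF-binding protein genes 3 were lower in iBAT and none higher: Igfbp2, at 29.6 and 35.6 against 114 and 549 FPKM (−2.91 ± 0.62), Igfbp3 (−2.52 ± 0.59) and Igfbp5 (−1.21 ± 0.30). Igfbp2 lost its call without the female iBAT library, and the other two without the female sWAT or the male iBAT library. Rxrg, a retinoid receptor, was higher at 432 and 564 against 56.1 and 20.3 FPKM (3.82 ± 0.39).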
